A study of Mus musculus with 6 samples.

Results

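The JmjC-domain genes encode iron-dependent oxygenases that use 2-oxoglutarate, and their transcripts were followed here in macrophages from the peritoneal cavity of C57BL/6 mice. Cells were cultured for 24 h with 0.1 mM R-2-hydroxyglutarate, written R-2-HG, or for 24 h with vehicle, with 3 RNA-seq libraries in each group. Members were the rows of the deposited table whose gene symbol equals a name on a list of 31 family genes. Of these names, 29 matched among the 34745 rows. The other 2, Riox1 and Riox2, were found by Ensembl ID under the older symbols 2410016O06Rik and Mina, and they are given beside the rest but left out of the counts unless stated. Not all members hold a JmjC domain: Kdm1a and Kdm1b remove methyl groups with a flavin cofactor, and Pla2g4b is a phospholipase gene that lies next to Jmjd7. The labels do not tie the libraries to different mice or dishes, and the p-values therefore reflect only how these libraries vary, which may be technical.

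A JmjC enzyme uses molecular oxygen and 2-oxoglutarate to hydroxylate its substrate. When the hydroxylated group is a methyl group on a histone lysine the methyl is lost, so most of the family are histone demethylases, while the smaller members hydroxylate side chains of proteins or bases of tRNA. R-2-HG, the product of mutant isocitrate dehydrogenases, resembles 2-oxoglutarate and competes with it at such enzymes. RNA-seq measures the transcripts of these enzymes and not their activity, and the comparison asks whether R-2-HG changed the transcript levels.

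Transcript levels are in FPKM, fragments per kilobase of transcript and scaled to the mapped fragments of the library, so that levels of different genes can be set side by side. Depth was estimated at 13470000 to 16160000 fragments in the R-2-HG libraries and 15490000 to 16310000 in the vehicle libraries. The macrophage label was borne out by the 8 macrophage markers, which summed to between 18880 and 25690 FPKM in R-2-HG and 20350 and 22930 FPKM in vehicle. Most of each sum was Lyz2, at 16920 to 23900 FPKM in R-2-HG and 18430 to 21160 FPKM in vehicle. The other macrophage markers had means over the 6 libraries between 22.8 FPKM (Fcgr1) and 1192 FPKM (Cd68). The 6 T and NK cell markers summed to between 0.395 and 1.64 FPKM in R-2-HG and 0.379 and 4.82 FPKM in vehicle, and 4 mast cell markers to between 0.0053 and 1.39 FPKM in R-2-HG and 0.688 and 0.924 FPKM in vehicle. The sums were 38.3 to 61.3 FPKM in R-2-HG and 54.9 to 128.5 FPKM in vehicle for 6 B cell markers, 29.8 to 46.9 FPKM in R-2-HG and 28.7 to 54.7 FPKM in vehicle for 6 neutrophil markers, and 3.81 to 70.5 FPKM in R-2-HG and 3.92 to 81.7 FPKM in vehicle for 6 fibroblast and mesothelial markers. None of these markers was at 0 in all libraries. Col1a1 fell with the replicate number in both groups, at 29.7, 5.36 and 0.965 FPKM in R-2-HG libraries 1 to 3 and 31.3, 10.9 and 1.46 FPKM in vehicle libraries 1 to 3. Col1a2, Col3a1 and Dcn fell in the same order, while Msln and Upk3b, which averaged below 1 FPKM, did not. The part of this in the values of family members was not tested. The 9 mitochondrially encoded genes summed to between 14920 and 18920 FPKM in R-2-HG and 15080 and 18600 FPKM in vehicle.

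No family transcript changed detectably with R-2-HG. Of the 29 rows, 22 had a mean of at least 1 FPKM over the 6 libraries and were tested, and 0 of them had an adjusted p under 0.05 (limma on log2(FPKM + 1), Benjamini-Hochberg over all genes tested, adjusted p = 0.99998). The background was the same, with 0 of 9701 genes called (0%), while 140 genes (1.44%) and 0 of the 22 members had an unadjusted p under 0.05. In R-2-HG 11 members had a higher and 11 a lower mean, and the median change was -0.00044 on the log2(FPKM + 1) scale, against -0.0044 over all genes tested. The smallest unadjusted p of a member was 0.163, for Hspbap1. In bulk samples fewer cells of a type and less RNA per cell cannot be told apart.

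The precision allowed modest changes to go unseen. Every change below is R-2-HG minus vehicle in mean log2(FPKM + 1), a scale that understates the change of low genes, and its error is the moderated SE from limma. This fit did not pair the libraries by their numbers, so its SEs and intervals are not those of a paired fit. With the replicate number as a block, 0 of the 22 tested members had an unadjusted p under 0.05 (limma). In the fit without the block, the 95% interval stayed within 1 unit of 0 for all 22 tested members, against 94.6% of all genes tested. It stayed within 0.5 units for 10 of the 22. The narrowest and the widest interval reached 0.30 and 0.64 to each side of the estimate. Summed over the 28 JmjC genes, Riox1 and Riox2 included, FPKM came to 117.2, 151.7 and 115.7 in R-2-HG libraries 1 to 3 and to 118.8, 137.8 and 128.7 in vehicle libraries 1 to 3. The sum averaged 128.2 ± 20.3 FPKM in R-2-HG and 128.4 ± 9.49 FPKM in vehicle (SD, n = 3 each), and the groups overlapped.

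**Figure D1:**
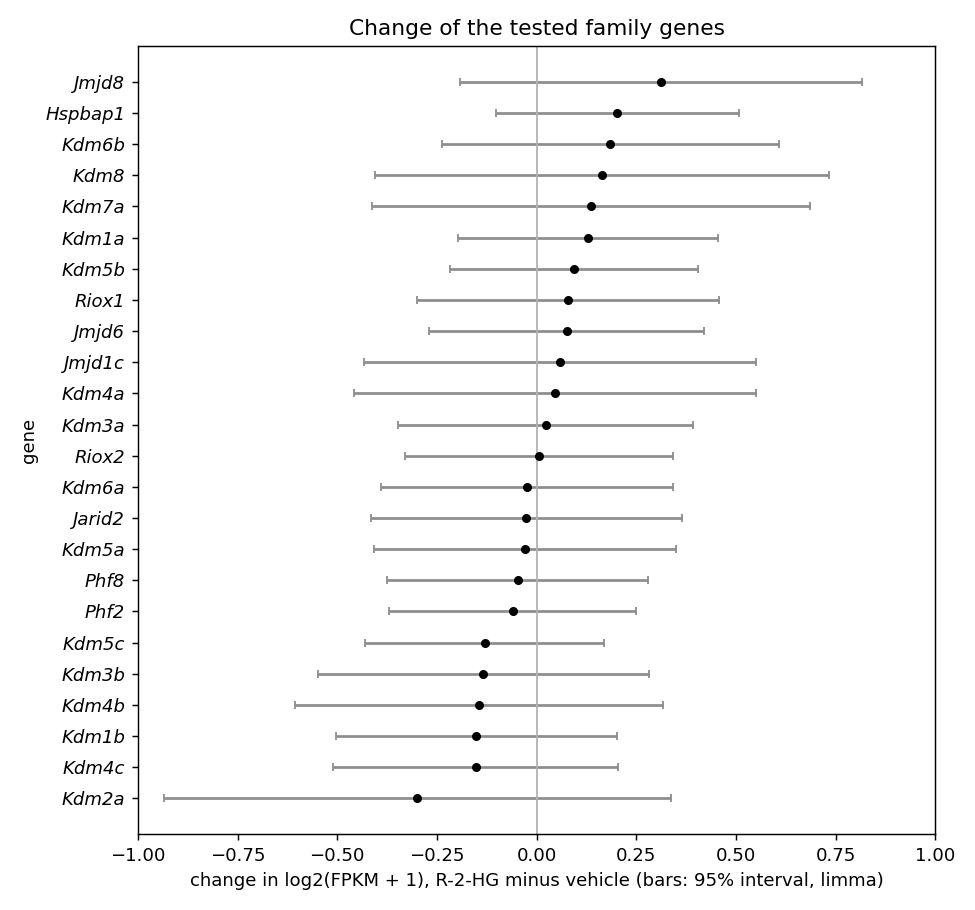
Change of each tested family gene in log2(FPKM + 1), R-2-HG minus vehicle, as points with the 95% interval from limma as bars, 3 libraries a group. Riox1 and Riox2 are included, every interval contains 0, and the interval of Kdm2a, at the bottom, is the widest.

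The family spanned a wide range of levels. By mean over the 6 libraries 3 members stood at 10 FPKM or more, 7 between 5 and 10 FPKM, 12 between 1 and 5 FPKM, and 7 below 1 FPKM. The median of the tested members was 4.63 FPKM, against 6.28 FPKM over all genes tested. The highest were Kdm3b (15.4 FPKM), Kdm7a (14.97 FPKM) and Phf2 (14.5 FPKM), at the 75.6, 74.9 and 74.2 percentile of tested genes. These 3 changed places between libraries, and so did most others. Phf2 and the next gene, Kdm5c (8.61 FPKM), were the only neighbours in the order of all 31 genes whose ranges over the 6 libraries did not overlap. The lowest tested were Jarid2 (1.52 FPKM), Jmjd8 (1.38 FPKM) and Kdm8 (1.27 FPKM).

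**Figure D2:**
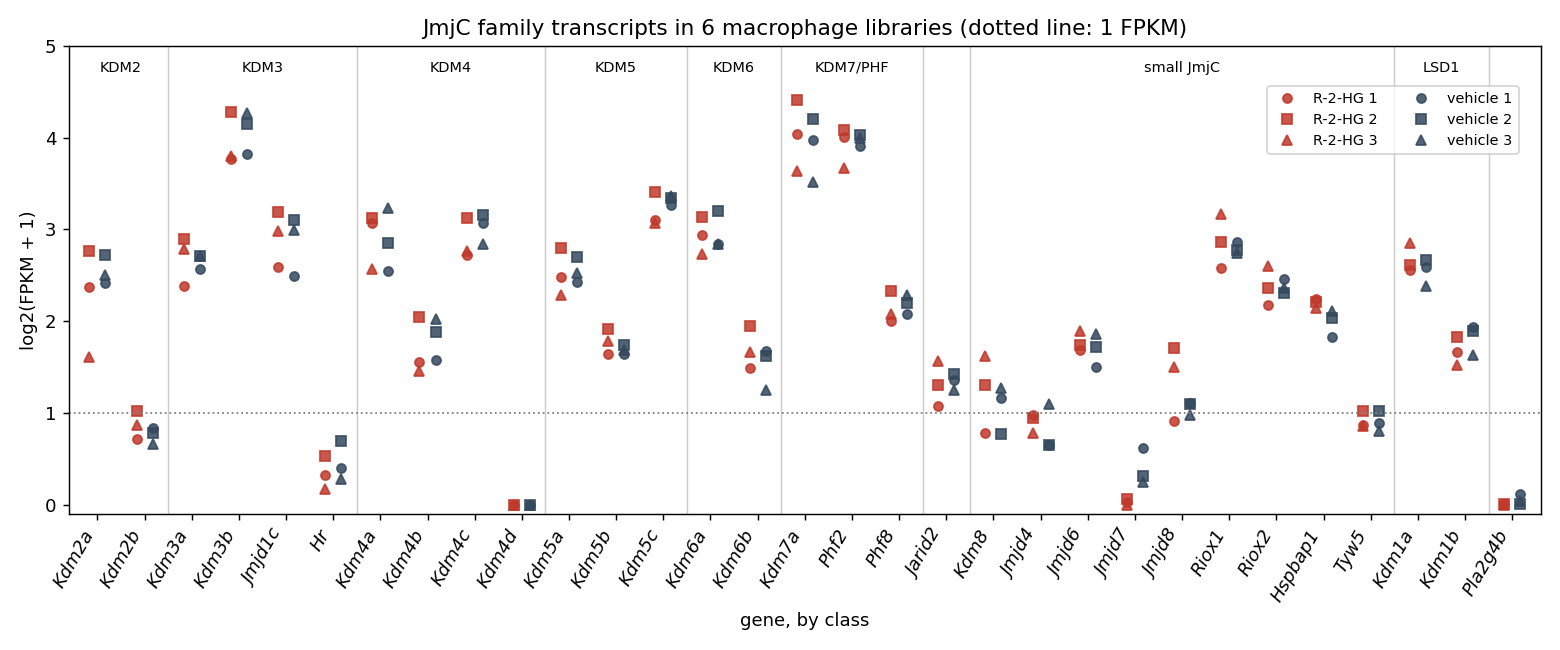
Level of each family gene as log2(FPKM + 1), 1 point per library (circle, square and triangle for replicates 1, 2 and 3), with R-2-HG left of vehicle within each gene and genes grouped by class. Kdm3b, Kdm7a and Phf2 stand above the rest in both groups, Kdm4d is at 0 in all 6 libraries, and Jmjd7 is the gene near the bottom whose groups do not overlap.

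The histone demethylases of the KDM2 to KDM7 classes made up 18 rows, of which 15 were tested, 6 of them with the higher and 9 with the lower mean in R-2-HG and 0 called. Kdm2a, which binds CpG islands and demethylates H3K36 (chromosome 19, 4314419 to 4398285, GRCm38), stood at 4.17, 5.78 and 2.06 FPKM in R-2-HG libraries 1 to 3 and 4.32, 5.60 and 4.68 FPKM in vehicle libraries 1 to 3. R-2-HG library 3 was low and the other 5 libraries lay together. The change was -0.30 (SE 0.27), the lowest of the tested members, and 0.019 without R-2-HG library 3. Its relative Kdm2b, which brings a Polycomb complex to CpG islands, was below the filter at 0.834 ± 0.188 FPKM in R-2-HG and 0.692 ± 0.0995 FPKM in vehicle (SD, n = 3 each).

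The KDM3 class is known for demethylation of H3K9, and Kdm3a is a known target of hypoxia-inducible factors. Kdm3a stood at 4.20, 6.43 and 5.91 FPKM in R-2-HG libraries 1 to 3 and 4.93, 5.56 and 5.55 FPKM in vehicle libraries 1 to 3. R-2-HG held both its lowest and its highest library, and the change was 0.022 (SE 0.16). Kdm3b stood at 12.6, 18.5 and 12.9 FPKM in R-2-HG and 13.2, 16.8 and 18.3 FPKM in vehicle, in the order of the libraries. The groups overlapped, with a change of -0.13 (SE 0.18). Jmjd1c, a large member of the class, averaged 6.69 ± 1.56 FPKM in R-2-HG and 6.40 ± 1.57 FPKM in vehicle (SD, n = 3 each). Hr, a corepressor known from the hair follicle, was below the filter at 0.253, 0.447 and 0.122 FPKM in R-2-HG and 0.322, 0.613 and 0.215 FPKM in vehicle; it was lower with R-2-HG in each same-numbered pair, and the groups overlapped.

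The KDM4 genes encode demethylases of trimethylated H3K9 and H3K36. Kdm4a stood at 7.41, 7.74 and 4.93 FPKM in R-2-HG libraries 1 to 3 and 4.86, 6.20 and 8.39 FPKM in vehicle libraries 1 to 3. Its lowest and highest libraries were both in vehicle, and the change was 0.046 (SE 0.22). Kdm4c averaged 6.37 ± 1.18 FPKM in R-2-HG and 7.16 ± 0.881 FPKM in vehicle (change -0.15, SE 0.15) and was lower with R-2-HG in all 3 same-numbered pairs, against 11.8% of all genes tested. Kdm4b averaged 2.26 ± 0.742 FPKM in R-2-HG and 2.58 ± 0.544 FPKM in vehicle (change -0.14, SE 0.20; SD, n = 3 each). Kdm4d, a gene known from testis, was listed at 0 in all 6 libraries.

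The KDM5 enzymes remove methyl groups from H3K4. Kdm5c, on the X chromosome, stood at 7.61, 9.59 and 7.39 FPKM in R-2-HG libraries 1 to 3 and 8.60, 9.12 and 9.32 FPKM in vehicle libraries 1 to 3. R-2-HG libraries 1 and 3 lay below all vehicle libraries and R-2-HG library 2 above them, with a change of -0.13 (SE 0.13). Kdm5a averaged 4.79 ± 1.06 FPKM in R-2-HG and 4.87 ± 0.562 FPKM in vehicle, and Kdm5b 2.45 ± 0.322 FPKM in R-2-HG and 2.23 ± 0.110 FPKM in vehicle (SD, n = 3 each). In all 3 same-numbered pairs the R-2-HG value of Kdm5b was the higher one (change 0.093, SE 0.13), as for 11.7% of all genes tested.

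The KDM6 pair removes methyl groups from H3K27, and Kdm6b is known as a gene that macrophages induce on inflammatory stimulation. Kdm6b stood at 1.82, 2.87 and 2.17 FPKM in R-2-HG libraries 1 to 3 and 2.20, 2.08 and 1.38 FPKM in vehicle libraries 1 to 3. The groups overlapped, vehicle library 3 was lowest, and the change was 0.19 (SE 0.18). Exons of Kdm6b overlap an antisense gene, Kdm6bos, which was listed at 0 in all 6 libraries. Kdm6a, the more abundant of the pair, averaged 6.71 ± 1.06 FPKM in R-2-HG and 6.84 ± 1.15 FPKM in vehicle (SD, n = 3 each; change -0.023, SE 0.16).

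Kdm7a, Phf2 and Phf8 share a PHD finger next to the JmjC domain and act on H3K9 and related marks. Kdm7a stood at 15.5, 20.3 and 11.5 FPKM in R-2-HG libraries 1 to 3 and 14.7, 17.4 and 10.4 FPKM in vehicle libraries 1 to 3. The order of the replicate numbers was the same in both groups, R-2-HG was higher in each same-numbered pair, and the groups overlapped. The change was 0.14 (SE 0.24). Phf2 stood at 15.0, 15.97 and 11.8 FPKM in R-2-HG and 14.0, 15.4 and 14.97 FPKM in vehicle, with R-2-HG library 3 lowest (change -0.060, SE 0.13). Phf8 averaged 3.42 ± 0.539 FPKM in R-2-HG and 3.56 ± 0.331 FPKM in vehicle (SD, n = 3 each). Jarid2, which has lost demethylase activity and guides the Polycomb complex PRC2, stood at 1.11, 1.47 and 1.95 FPKM in R-2-HG and 1.56, 1.68 and 1.37 FPKM in vehicle, where R-2-HG again held the lowest and the highest library (change -0.026, SE 0.17).

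Among the small JmjC hydroxylases, 6 of 9 genes were tested when Riox1 and Riox2 are counted, and all 6 had a higher mean in R-2-HG, with 0 called; 48.4% of all genes tested had a higher mean. The median change of these 6 was 0.12, and the sum of the 9 genes was 17.9, 22.1 and 24.6 FPKM in R-2-HG libraries 1 to 3 and 19.5, 18.9 and 20.2 FPKM in vehicle libraries 1 to 3, so the groups overlapped. The direction was not kept by all 6 when libraries were left out. Without R-2-HG library 3, Kdm8, Riox1 and Riox2 had a lower mean in R-2-HG. Riox2 did so also without vehicle library 2 or 3, and Jmjd6 without vehicle library 1. The 3 genes of the class below the filter were fitted with no filter. There Jmjd7 had a lower mean in R-2-HG (change -0.36), while Jmjd4 (0.10) and Tyw5 (0.012) had a higher one.

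Hspbap1, named for its association with a small heat shock protein (chromosome 16, 35770375 to 35828477, GRCm38), was the only one of the 22 tested members whose groups did not overlap, against 4.69% of all genes tested. It stood at 3.72, 3.62 and 3.41 FPKM in R-2-HG libraries 1 to 3 and 2.55, 3.09 and 3.33 FPKM in vehicle libraries 1 to 3. The gap between the lowest R-2-HG and the highest vehicle library was small, and the groups overlapped once FPKM was rescaled to TPM, which gives every library the same sum. The change was 0.20 (SE 0.13), and 2.03% of all genes tested had all R-2-HG libraries above all vehicle libraries. Exons of Hspbap1 overlap Gm26838 on the opposite strand, which was listed at 0 in all 6 libraries.

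Jmjd8, whose protein resides in the endoplasmic reticulum (chromosome 17, 25828867 to 25831843, GRCm38), had the highest change of the tested members at 0.31 (SE 0.22). It stood at 0.887, 2.26 and 1.84 FPKM in R-2-HG libraries 1 to 3 and 1.16, 1.14 and 0.970 FPKM in vehicle libraries 1 to 3. R-2-HG library 1 was the lowest of all 6, the other R-2-HG libraries were the highest, and without library 1 the change was 0.54 (SE 0.17), which did not pass either (limma, unadjusted p = 0.0171, adjusted p = 0.99903). Jmjd8 was then the 1 member with an unadjusted p under 0.05, as were 305 of 9701 genes in all. Exons of Jmjd8 overlap Stub1 on the opposite strand, a gene at a mean of 28.1 FPKM, and strand handling is not given in the sources used here, so the value of Jmjd8 is uncertain.

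The other hydroxylases varied mainly within the groups. Kdm8, also called Jmjd5, whose human protein hydroxylates arginine side chains, stood at 0.717, 1.47 and 2.07 FPKM in R-2-HG libraries 1 to 3 and 1.24, 0.707 and 1.41 FPKM in vehicle libraries 1 to 3 (change 0.16, SE 0.25), and the groups overlapped. Jmjd6, a lysyl hydroxylase of splicing factors, stood at 2.22, 2.34 and 2.71 FPKM in R-2-HG and 1.84, 2.30 and 2.64 FPKM in vehicle, higher with R-2-HG in each same-numbered pair but overlapping between the groups (change 0.075, SE 0.15). Exons of Jmjd6 overlap Mettl23 on the opposite strand, which had a mean of 1.44 FPKM. Riox1 and Riox2, ribosomal oxygenases that hydroxylate histidines of ribosomal proteins, had overlapping groups. Riox1 stood at 4.98, 6.29 and 7.97 FPKM in R-2-HG and 6.26, 5.86 and 5.67 FPKM in vehicle, with R-2-HG library 1 lowest and R-2-HG library 3 highest. Riox2 averaged 4.25 ± 0.771 FPKM in R-2-HG and 4.19 ± 0.288 FPKM in vehicle (SD, n = 3 each). Jmjd4, which hydroxylates a translation termination factor, and Tyw5, a tRNA hydroxylase, were below the filter. Jmjd4 averaged 0.868 ± 0.133 FPKM in R-2-HG and 0.756 ± 0.329 FPKM in vehicle, and Tyw5 0.890 ± 0.121 FPKM in R-2-HG and 0.875 ± 0.147 FPKM in vehicle (SD, n = 3 each).

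Jmjd7, a lysyl hydroxylase of GTPases, was the other member whose groups did not overlap, at a level where few fragments were counted. It stood at 0.0191, 0.0456 and 0 FPKM in R-2-HG libraries 1 to 3 and 0.533, 0.242 and 0.188 FPKM in vehicle libraries 1 to 3. At the estimated depth and the 1373 bp of its longest transcript this corresponds to about 0.4, 0.8 and 0 fragments in R-2-HG and 11.6, 5.1 and 4.2 fragments in vehicle. It was below the filter, and without a filter its change was -0.36 (SE 0.11; unadjusted p = 0.0128, limma adjusted p = 0.9997), so it was not called. With no filter Jmjd7 was the 1 member with an unadjusted p under 0.05, as were 303 of 17294 genes in all. In that fit the groups did not overlap for 2 of 28 members and for 795 of 17294 genes.

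Jmjd7 shares exons with another gene model. Jmjd7 (chromosome 2, 120027483 to 120032594, GRCm38) lies upstream of Pla2g4b (120033417 to 120043030), and another model, Gm28042, spans both and shares exons with each on the same strand. Gm28042 stood at 0.132, 0.353 and 0.364 FPKM in R-2-HG libraries 1 to 3 and 0.0105, 0.118 and 0.421 FPKM in vehicle libraries 1 to 3, and its groups overlapped. Pla2g4b stood at 0.0070, 0.0084 and 0 FPKM in R-2-HG and 0.0872, 0.0074 and 0.0276 FPKM in vehicle. In vehicle, the library with the highest Jmjd7 value had the lowest Gm28042 value. The Jmjd7 values above 0 in R-2-HG were each worth less than 1 whole fragment. The 3 models together came to about 11.8, 25.5 and 26.6 fragments in R-2-HG libraries 1 to 3 and 18.3, 14.9 and 41.1 fragments in vehicle libraries 1 to 3, where the groups overlapped. The part of the shared exons in the Jmjd7 values was not tested.

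The stretch before the start of Jmjd7 is shown because Gm28042 begins within the first exon of Jmjd7, so both models lie behind the same sequence. It runs from the end of the upstream gene Mapkbp1 to the base before Jmjd7 (chr2:120027409-120027482, plus strand, GRCm38.p6, RefSeq promoter table). The capitals mark the GC box letters GGGCGG, which were searched on both strands and found at 2 places on the plus strand and 0 on the minus strand.
Jmjd7 upstream: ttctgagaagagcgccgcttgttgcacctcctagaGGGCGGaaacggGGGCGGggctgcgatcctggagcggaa
Of the 32851 promoters in the table, 21.3% held these letters on either strand in the 74 bases before the start.

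**Figure D3:**
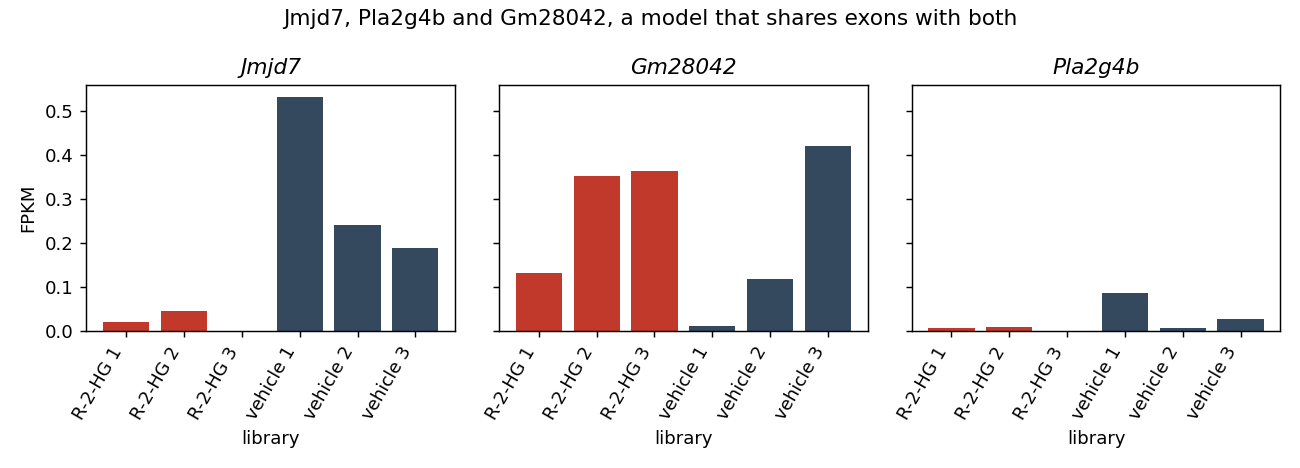
FPKM of Jmjd7, Gm28042 and Pla2g4b in each library, R-2-HG libraries in red and vehicle libraries in dark blue. Jmjd7 is at or below 0.0456 FPKM in all R-2-HG libraries and at or above 0.188 FPKM in all vehicle libraries, while Gm28042 overlaps between the groups and Pla2g4b is at or below 0.0872 FPKM throughout.

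The flavin-dependent demethylases gave a comparison outside the JmjC fold, as they use no 2-oxoglutarate. Kdm1a (LSD1), which demethylates H3K4 within the CoREST complex, averaged 5.41 ± 0.730 FPKM in R-2-HG and 4.85 ± 0.572 FPKM in vehicle (change 0.13, SE 0.14; SD, n = 3 each). Kdm1b stood at 2.17, 2.54 and 1.88 FPKM in R-2-HG libraries 1 to 3 and 2.83, 2.73 and 2.09 FPKM in vehicle libraries 1 to 3. It was lower with R-2-HG in all 3 same-numbered pairs, with overlapping groups (change -0.15, SE 0.15). Its exons overlap Dek on the opposite strand, at a mean of 22.4 FPKM, and those of 15 of the 31 genes overlap some gene on the opposite strand. More abundant opposite-strand neighbours were also found for Riox2 (Crybg3, mean 7.69 FPKM), Jmjd4 (Snap47, 4.89 FPKM), Kdm2b (Rnf34, 5.83 FPKM) and Pla2g4b (Sptbn5, 0.153 FPKM). These values are uncertain in the same way. Tyw5 also has an opposite-strand neighbour, Maip1, which was sought by symbol only and not found, so its level is not known here. Without Kdm1a, Kdm1b and Pla2g4b, 10 of 20 tested JmjC members had a higher and 10 a lower mean in R-2-HG.

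Libraries of the same group differed in where family members stood. Of 24 tested genes, Riox1 and Riox2 included, 13 had their highest value in R-2-HG library 2 and 0 their lowest, while 8 had their lowest in R-2-HG library 1 and 7 in R-2-HG library 3. Over all genes tested, 23.8% were highest and 16.6% lowest in R-2-HG library 2, 15.98% were lowest in R-2-HG library 1 and 25.2% were lowest in R-2-HG library 3, so that the 7 of 24 members in library 3 were near the share of all genes. Of the 13 genes with an annotated transcript of at least 5000 bp, a split chosen after the values were seen, 10 (76.9%) were highest in R-2-HG library 2, as were 52.1% of the 2064 tested genes of that length and 16.1% of the 7606 shorter ones. Of the 11 shorter family genes 3 were highest there. R-2-HG library 2 was above the mean for 12 of the 13 longer and 10 of the 11 shorter family genes. Over all genes tested it was above the mean for 1741 of 2064 longer and 3626 of 7606 shorter genes. By this count both classes of family genes mostly lay above the mean there, while over all genes only the longer class did. The shorter classes were not matched in length. Kdm3a, Kdm4a, Kdm4b and Kdm4c, at 4196 to 4853 bp, lay just under the split and deviated by 0.179 to 0.285. Jmjd8 and Kdm8, at 2268 and 2389 bp, deviated by 0.486 and 0.151, and Jmjd6 and Kdm1a by only 0.003. Whether the family differed from genes of like length was not tested. Lowest values in R-2-HG library 1 were found for 3 of the 13 longer and 5 of the 11 shorter family genes. Over all genes tested they were found for 334 of 2064 longer and 1211 of 7606 shorter genes.

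In R-2-HG library 3 the longer and the shorter family genes had medians of opposite sign. The median deviation of log2(FPKM + 1) in that library was -0.19 for the 13 longer family genes and 0.16 for the 11 shorter ones, and -0.12 for longer and 0.030 for shorter genes over all tested. The longer genes Kdm2a, Kdm5a, Kdm5c, Kdm6a and Phf2 were lowest there, whereas the shorter genes Kdm8, Riox1, Riox2, Kdm1a and Jmjd6 were highest there. Among such extremes the exceptions were Jarid2, longer and highest there, and Kdm4b and Kdm1b, shorter and lowest there. The split was not clean, as 5 of the 13 longer and 7 of the 11 shorter genes lay above the mean there. The shorter genes Kdm4a (-0.333) and Kdm4c (-0.185) also lay below it, and the longer Jmjd1c, Kdm5b, Kdm6b and Hspbap1 above it. In R-2-HG library 1 the median was -0.091 for the longer and -0.21 for the shorter family genes, and in R-2-HG library 2 it was 0.19 for the longer and 0.15 for the shorter family genes. Over all genes tested the medians were -0.053 for longer and -0.008 for shorter genes in R-2-HG library 1. In R-2-HG library 2 they were 0.18 for longer and -0.009 for shorter genes. In vehicle libraries 1 to 3 the medians were -0.086, 0.094 and 0.021 for the longer family genes and -0.022, -0.012 and -0.018 for the shorter ones. The same medians over all genes tested were -0.070, 0.107 and -0.005 for longer and 0.015, 0.002 and 0.005 for shorter genes. The part of this in the changes of single members was not tested.

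**Figure D4:**
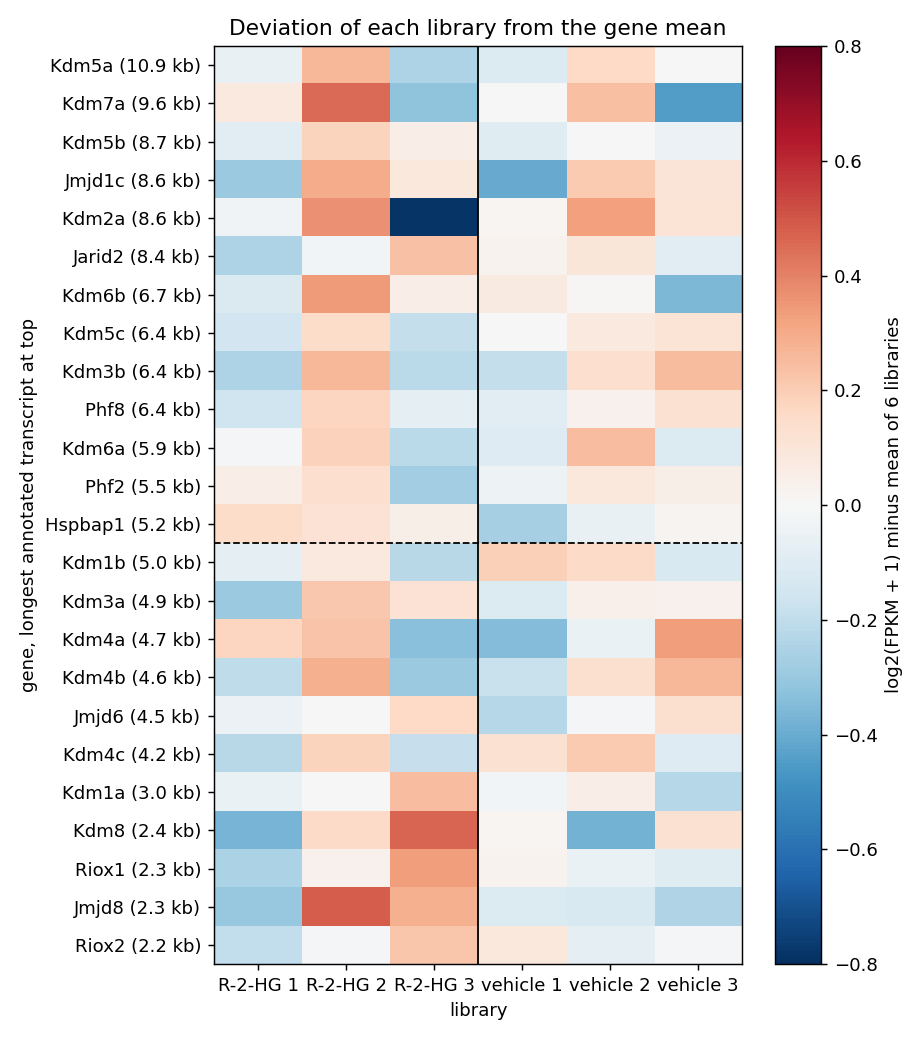
Deviation of log2(FPKM + 1) in each library from the mean of the 6 libraries, for the 24 tested family genes ordered by the length of the longest annotated transcript, with a dashed line at 5000 bp. R-2-HG library 2 is above the mean (red) for 12 of the 13 longer and 10 of the 11 shorter genes, Jmjd6 and Kdm1a by only 0.003. R-2-HG library 3 is below the mean (blue) for most long genes and above it for the shortest ones.

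The enzymes that write the same histone marks, and the complexes in which family members work, did not change detectably either. Of 56 such genes in 6 lists, 47 were tested, 25 of them with the higher and 22 with the lower mean in R-2-HG, and 0 were called in either direction (limma, adjusted p = 0.99998). Their median change was 0.0046. Among H3K4 methyltransferases and their subunits, 4 of 14 tested genes had a higher and 10 a lower mean (median -0.036). Men1, which encodes menin, stood at 2.22, 2.46 and 2.03 FPKM in R-2-HG libraries 1 to 3 and 2.60, 2.59 and 2.995 FPKM in vehicle libraries 1 to 3. Its groups did not overlap, as was the case for 2.66% of all genes tested in that direction (change -0.20, SE 0.13). The core subunit gene Dpy30 had a change of -0.19 (SE 0.18).

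H3K27 methyltransferases and PRC2 subunits had 5 of 8 tested genes higher (median 0.060). Suz12, a core subunit of PRC2, stood at 7.39, 7.47 and 6.24 FPKM in R-2-HG libraries 1 to 3 and 6.80, 3.91 and 6.15 FPKM in vehicle libraries 1 to 3, with vehicle library 2 below the rest (change 0.30, SE 0.19). The histone chaperone gene Rbbp7 had a change of 0.17 (SE 0.13), and the methyltransferase gene Ezh2 lay below the filter at a mean of 0.848 FPKM. For H3K9 methyltransferases 3 of 5 were higher (median 0.018), with Setdb2 at 0.17 (SE 0.19) and Ehmt2, also called G9a, at -0.10 (SE 0.12). For H3K36 and H3K79 methyltransferases 4 of 6 were higher (median 0.036), with Smyd2 at 0.23 (SE 0.13) and Nsd3, listed as Whsc1l1, at -0.21 (SE 0.16).

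Partner complexes were read from the same fit. Of the PRC1.1 partners of the KDM2B protein, a Polycomb complex, 5 of 8 had a higher mean (median 0.012). Its genes Bcor and Pcgf1 had changes of -0.19 (SE 0.15) and -0.17 (SE 0.16). Of the CoREST partners of LSD1, a histone deacetylase complex, 4 of 6 tested had a higher mean (median 0.0051), with Phf21a at -0.12 (SE 0.15) and the deacetylase gene Hdac2 at 0.078 (SE 0.16). None of these 6 lists held a gene with an unadjusted p under 0.05. The list medians depended on single libraries. With 1 library left out the median ran from -0.16 to 0.014 for the H3K4 list, -0.066 to 0.059 for H3K9, 0.0037 to 0.087 for H3K27 and PRC2, -0.15 to 0.16 for H3K36 and H3K79, -0.069 to 0.021 for PRC1.1 and -0.051 to 0.046 for CoREST, so that of the 6 only the H3K27 and PRC2 median kept its sign in all of these fits.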

How the data were processed

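The authors deposited 1 table of FPKM values per gene and library, used as deposited. Per the submitters' processing notes, which give no roles, the names involved were mm10, mm8, Cuffdiff and Bowtie 0.12.2. For annotation and strand handling nothing was stated; both were not given in the sources used here. The FPKM unit was taken from Cuffdiff and the values. Depth was estimated from steps between low values of 7051 single-transcript genes over 1000 bp, where 96.2% to 97.0% of low values lay within 0.1 of a whole fragment. At that depth 3 fragments of a 1373 bp transcript equal 0.134 to 0.162 FPKM.

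Genes averaging 1 FPKM or more across the 6 libraries entered limma 3.58.1 (R 4.3.3, trend and robust eBayes) as log2(FPKM + 1), two-sided, with Benjamini-Hochberg adjustment over 9701 genes and a threshold of 0.05; the fit was checked on simulated data. The smallest p of an exact permutation test with 3 libraries a group is 0.1. GENCODE M21 (GRCm38) gave locations, lengths and overlaps; it need not be the authors' annotation. Python 3.11.15, pandas 2.3.3, numpy 2.4.6 and matplotlib 3.10.9 were used.

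Members and lists were chosen with earlier results of these data known. All members are named; every library is given for the 3 smallest p in each direction, the 3 highest and 3 lowest levels, members without overlap, and Kdm6b, Kdm4a, Kdm5c, Jmjd6 and Kdm3a. Each partner list gives its 2 smallest p.

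The titles number the libraries 1 to 3 in each group without saying what a number marks. Across genes, the deviations from the group means had correlations of 0.54, 0.37 and 0.36 for libraries sharing a number. For the others they lay between -0.47 and 0.05. Same-numbered libraries were therefore described as pairs, from the data and not the labels. The main fit left the pairing out, and a fit with the replicate number as a block was an alternative.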

Additional observations from a re-analysis of the deposited data

How the results depend on the processing

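No family member was called under any alternative: log2(FPKM + 0.1), no filter, a mean of at least 5 FPKM, quantile normalization, TPM scaling, a simpler variance model, the replicate block and leaving out each library (smallest adjusted p 0.991). With the replicate number as a block 0 genes were called, and 329 had an unadjusted p under 0.05, against 140 without it. No call changed with the pairing. The SE of Kdm7a fell from 0.24 to 0.083 with the block. Its unadjusted p (limma) fell from 0.581 to 0.153, the smallest of a member in that fit. The SEs and intervals given for the other members are from fits without the block. Leaving out a library gave 0 to 1 called genes in the whole table: 1 without R-2-HG library 1, 1 without R-2-HG library 3, none a member. The median change of members ran from -0.087 to 0.057 when libraries were left out; the directions of 14 of the tested genes then turned in at least 1 fit, and the cause was not tested. Their changes ranged from -0.56 to 0.019 for Kdm2a, -0.080 to 0.18 for Kdm3a, -0.13 to 0.22 for Jmjd1c, -0.12 to 0.22 for Kdm4a, -0.17 to 0.088 for Kdm5a, -0.12 to 0.095 for Kdm6a, -0.055 to 0.33 for Kdm7a, -0.14 to 0.064 for Phf2, -0.14 to 0.021 for Phf8, -0.15 to 0.092 for Jarid2, -0.029 to 0.39 for Kdm8, -0.021 to 0.16 for Jmjd6, -0.068 to 0.22 for Riox1 and -0.10 to 0.11 for Riox2. Changes that kept their sign also moved by over 1.5 times, as in Kdm6b (0.053 to 0.29), Kdm3b (-0.30 to -0.039), Kdm4b (-0.32 to -0.032), Kdm1a (0.039 to 0.19), Kdm4c (-0.28 to -0.080), Kdm5b (0.027 to 0.16), Kdm5c (-0.24 to -0.068), Kdm1b (-0.25 to -0.078), Jmjd8 (0.15 to 0.54) and Hspbap1 (0.12 to 0.26). Genes with groups that did not overlap numbered 455, 795 with no filter and 213 at 5 FPKM or more, as more or fewer genes were tested; among members they numbered 1, 2 with no filter, 0 at 5 FPKM or more and 0 after TPM scaling. Adding Riox1 and Riox2 moved the median to 0.014, a choice made after seeing the data, as was leaving out Kdm1a, Kdm1b and Pla2g4b. Depth limits Jmjd7 and Pla2g4b, where few or no fragments set the value, and Kdm4d, which was at 0 in all 6 libraries.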
